A study of Sus scrofa with 24 samples.

Results

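The transcripts of 10 liver nuclear receptors were followed in the livers of 24 pigs: HNF4A, PPARA, PPARG, NR1H3, NR1H4, NR1I2, NR1I3, RXRA, NR3C1 and NR0B2. Every probe, control features aside, whose name or description on the array gives one of these genes was taken, which found 25 of the 43603 probes, between 1 and 4 per gene. The array names 5475 genes in all. The pigs weighed 115 kg and fell into 3 groups of 8, each pig on an array of its own. Restricted high RFI pigs (strain label RFIplR) came from the line with high residual feed intake (RFI, the feed eaten beyond that predicted from growth and maintenance) and were held to the intake of the low RFI line. High RFI pigs (RFIpl) belonged to that same line with free access to feed. Low RFI pigs (RFIneg), the feed-efficient line, also ate ad libitum. High against low RFI therefore sets 2 lines at free intake against each other, restricted high against high RFI sets 2 feeding levels within a line, and restricted high against low RFI sets 2 lines at a matched feeding level. The labels give neither the sex nor the age of the pigs.

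Nuclear receptors are transcription factors, most of which switch genes on or off when a small lipid-soluble ligand binds them. In the liver they sense fatty acids, oxysterols, bile acids, glucocorticoids and foreign chemicals, and many bind DNA as a pair with RXRA. HNF4A, which keeps hepatocytes differentiated, needs no such partner, and NR0B2 has no DNA-binding domain and represses other receptors.

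None of the 10 receptors differed between groups by the test across all probes. A level is the log2 signal minus the array's 75th percentile, differences are in log2 units with their standard error (SE), and a call needs a Benjamini-Hochberg adjusted p below 0.05 in limma over the 29665 probes that stood above background. In high minus low RFI, 0 of the 25 receptor probes were called, where 0.162% of all probes were. The count was 0 in restricted high minus high RFI, and the share of all probes called was 0.0%. It was 0 in restricted high minus low RFI, against 0.229% of all probes. With an unadjusted p under 0.05, the receptor probes numbered 2 in each comparison, beside 9.64%, 5.37% and 12.8% of all probes in the same order of comparisons. The smallest adjusted p of a receptor probe in limma was 0.292, 0.917 and 0.209 in that order.

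Most receptor differences were small and their intervals narrow. The 95% interval of the difference lay within 0.5 log2 units of 0 for 22, 22 and 20 of the 25 probes in high minus low, restricted high minus high and restricted high minus low RFI. The difference was below 0 for 19 probes in high minus low RFI, where 49.0% of all probes were below 0. It was below 0 for 15 probes in restricted high minus high RFI (53.1% of all probes) and for 18 in restricted high minus low RFI (51.3%). The probes of a gene share its transcript, so these counts are a description. The median difference of the receptor probes was -0.07, -0.02 and -0.11 in the 3 comparisons, and that of all probes 0.00, -0.01 and -0.01. In no comparison did a receptor probe separate its groups without overlap, and 0.138%, 0.027% and 0.135% of all probes did.

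**Figure D1:**
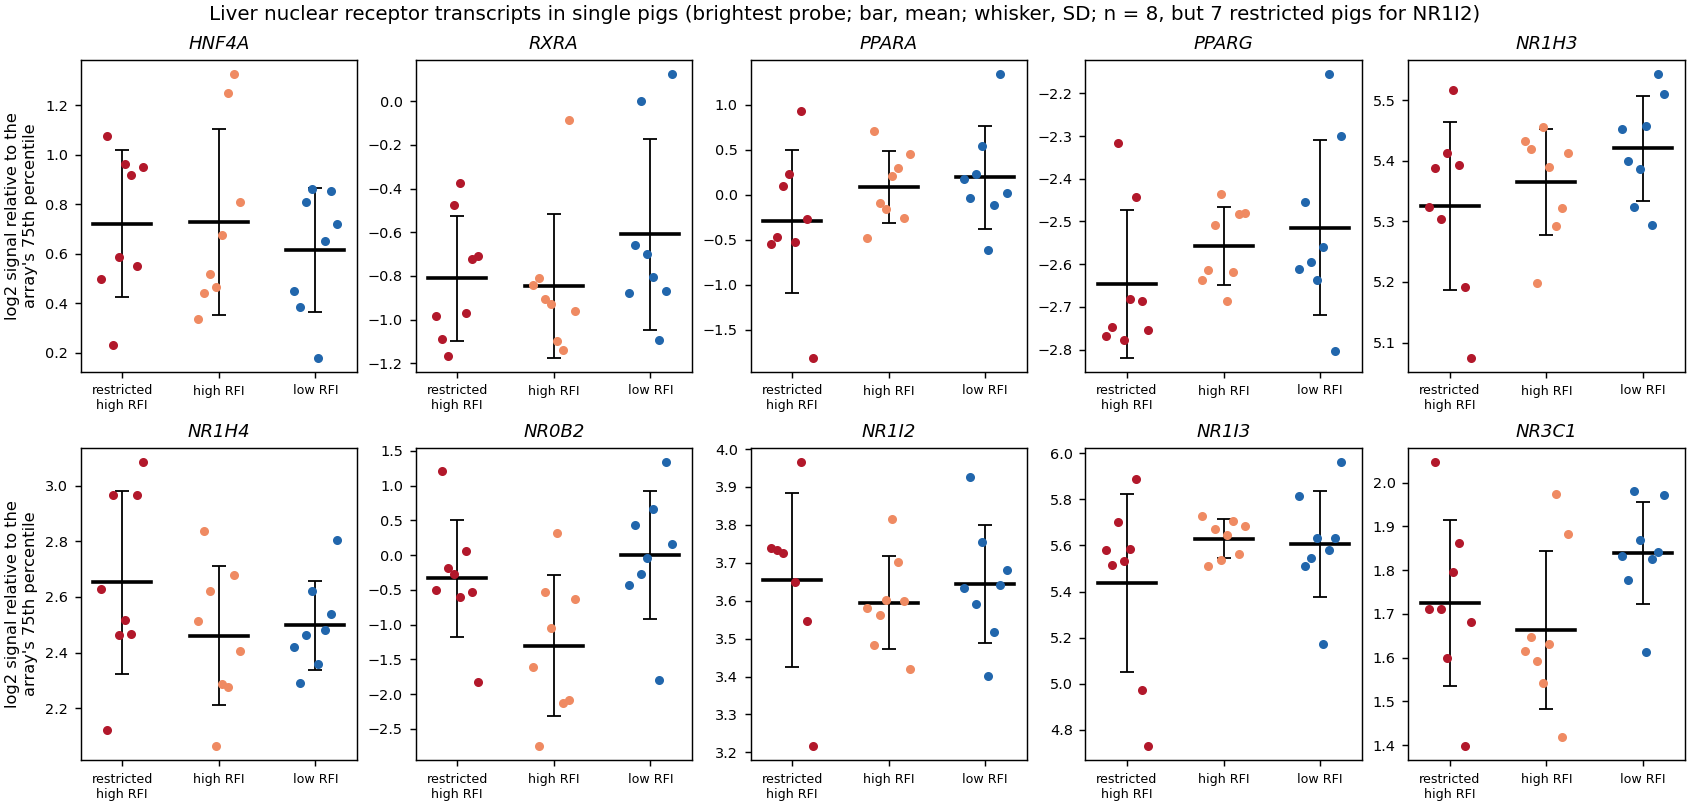
Level of each receptor in every pig, on the probe of the gene with the highest mean signal, in log2 signal above the array's 75th percentile. Each point is a pig, the bar is the group mean and the whisker 1 SD; the groups overlap in all 10 panels, and NR0B2 spreads most, from -2.74 to 1.34.

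All 25 probes stood well above background on all 24 arrays and 0 of their values were saturated. Between 63.2% and 72.7% of the spots of an array were above background, and correlations between arrays ran from 0.971 to 0.991. Slide 6 stood apart from the other 5 slides: 156 probes (0.526%) lay higher and 313 (1.06%) lower on its 4 arrays than on all 20 others. RXRA was the only receptor among them, and its values are therefore given with and without that slide. The liver label was checked against markers: 7 of 10 hepatocyte marker genes had a named probe, and all 7 stood above background. Their summed level ran from 11.56 to 11.78 in restricted high, from 11.56 to 11.81 in high and from 11.63 to 11.73 in low RFI pigs. In bulk tissue, fewer cells of a type and less RNA per cell cannot be told apart.

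NR0B2, the small heterodimer partner that bile acid signalling induces and that represses bile acid synthesis, had the widest spread of the 10 receptors and the largest differences in high minus low and restricted high minus high RFI. Its single probe is shown because those differences rest on it alone, in lower case throughout.
NR0B2 probe A_72_P146191: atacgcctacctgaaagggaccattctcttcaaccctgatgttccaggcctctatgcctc

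In restricted high RFI pigs 1 to 8, NR0B2 stood at -0.51, 1.20, -0.18, -0.28, -0.61, 0.06, -0.53 and -1.83. In high RFI pigs 1 to 8 it stood at -1.61, -2.74, -0.53, -1.05, 0.32, -2.12, -2.08 and -0.63. In low RFI pigs 1 to 8 it stood at -0.42, 0.43, -0.28, -0.05, 0.66, -1.79, 1.34 and 0.17. Low values were most frequent in the high RFI group, yet each group held a pig within the range of the others: restricted pig 8 and low RFI pig 6 were as low as the high RFI pigs, and high RFI pig 5 was not.

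The group means of NR0B2 were -0.33 ± 0.84 in restricted high, -1.31 ± 1.01 in high and 0.01 ± 0.92 in low RFI pigs (SD, n = 8 each). High minus low RFI was -1.31 ± 0.44 (SE), a 0.402-fold level with a 95% interval of 0.216 to 0.751, with an unadjusted p of 0.006 and an adjusted p of 0.292 in limma. In that comparison 7 of 8 high RFI pigs lay below the low RFI mean. Restricted high minus high RFI was 0.97 ± 0.44 (SE, adjusted p = 0.917 in limma), a 1.96-fold level with an interval of 1.05 to 3.66. Here 7 of 8 restricted pigs lay above the high RFI mean. Restricted high minus low RFI was -0.34 ± 0.44 (SE, adjusted p = 0.792 in limma). The first pair of comparisons share the high RFI arrays, so a low mean there enters both.

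The spread of NR0B2 within groups, 0.93 log2 units, was at the 98.1 percentile of all probes kept. Within slides, high lay below low RFI on 5 of 6, and restricted high lay above high RFI on 5 of 6. Restricted high also lay below low RFI on 5 of 6. A group had only 1 or 2 arrays on a slide. On scan day 1 alone, high minus low RFI was -1.92 (adjusted p = 0.713), and on scan day 2 alone it was -0.91 (adjusted p = 0.699, both limma). Restricted high minus high RFI was 1.13 on day 1 (adjusted p = 0.852) and 0.77 on day 2 (adjusted p = 1.0, both limma). Without slide 6, high minus low RFI was -1.22 (adjusted p = 0.665 in limma).

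NR1H4, the bile acid receptor FXR, which induces NR0B2, did not share its pattern of means. On its brightest probe (A_72_P111436) NR1H4 ran from 2.12 through a median of 2.57 to 3.08 in restricted high RFI pigs. It ran from 2.07 through 2.46 to 2.84 in high and from 2.29 through 2.47 to 2.81 in low RFI pigs. Its means were 2.65 ± 0.33, 2.46 ± 0.25 and 2.50 ± 0.16 in that order (SD, n = 8 each). High minus low RFI was -0.04 ± 0.13 (SE, adjusted p = 0.96), restricted high minus high RFI 0.19 ± 0.13 (SE, adjusted p = 0.95) and restricted high minus low RFI 0.15 ± 0.13 (SE, adjusted p = 0.657, all limma). Restricted pigs thus averaged highest, with 7 of 8 above the high RFI mean, by less than the spread between pigs. Its other probes, A_72_P455774 and A_72_P026816, gave differences between -0.06 and 0.12. Over the 24 arrays NR1H4 and NR0B2 had a correlation of -0.31.

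Of 16 FXR target and bile acid genes, 6 had a probe above background, and 0 were called by limma in any of the 3 comparisons. An unadjusted p under 0.05 was found for 1, 0 and 1 of them in high minus low, restricted high minus high and restricted high minus low RFI. The shares over all probes were 9.64%, 5.37% and 12.8%. All 6 lay above 0 in high minus low RFI and all 6 below 0 in restricted high minus high RFI. Of all probes, 49.0% and 53.1% lay below 0 in these comparisons, which share the high RFI arrays. The median difference of the 6 was 0.06, -0.22 and -0.10 in high minus low, restricted high minus high and restricted high minus low RFI, beside 0.00, -0.01 and -0.01 over all probes. Most of the 6 were nearly level between high and low RFI pigs. Means in high and low RFI pigs were 6.17 and 6.16 for SLC10A1, 3.14 and 3.09 for FGFR4, 4.98 and 4.92 for ABCB11, and 0.23 and 0.17 for ABCB4. The 6 include both the FXR target SLC51B and CYP7A1, which NR0B2 represses, so a shared sign is no measure of FXR activity. SLC51B, a subunit of the basolateral bile acid exporter and an FXR target, ran from -1.16 through -0.36 to 0.97 in restricted high RFI pigs. It ran from -1.65 through 0.48 to 1.09 in high and from -1.83 through -0.98 to -0.76 in low RFI pigs. Its high minus low RFI difference was 1.31 ± 0.37 (SE, adjusted p = 0.183) and its restricted high minus low RFI difference 0.94 ± 0.37 (SE, adjusted p = 0.273, both limma). The high minus low RFI differences of SLC51B and NR0B2 were of opposite sign.

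CYP7A1, the rate-limiting enzyme of bile acid synthesis and a gene that NR0B2 represses, varied widely between pigs. It averaged 2.01 ± 1.53 in restricted high and 2.94 ± 1.19 in high RFI pigs (SD, n = 8 each), a difference of -0.93 ± 0.61 (SE, adjusted p = 0.95 in limma). ABCB11, the canalicular bile salt export pump, differed by -0.17 ± 0.14 in that comparison (SE, adjusted p = 0.963 in limma). ABCB4, the canalicular phospholipid exporter, differed by -0.28 ± 0.18 (SE, adjusted p = 0.947 in limma).

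**Figure D2:**
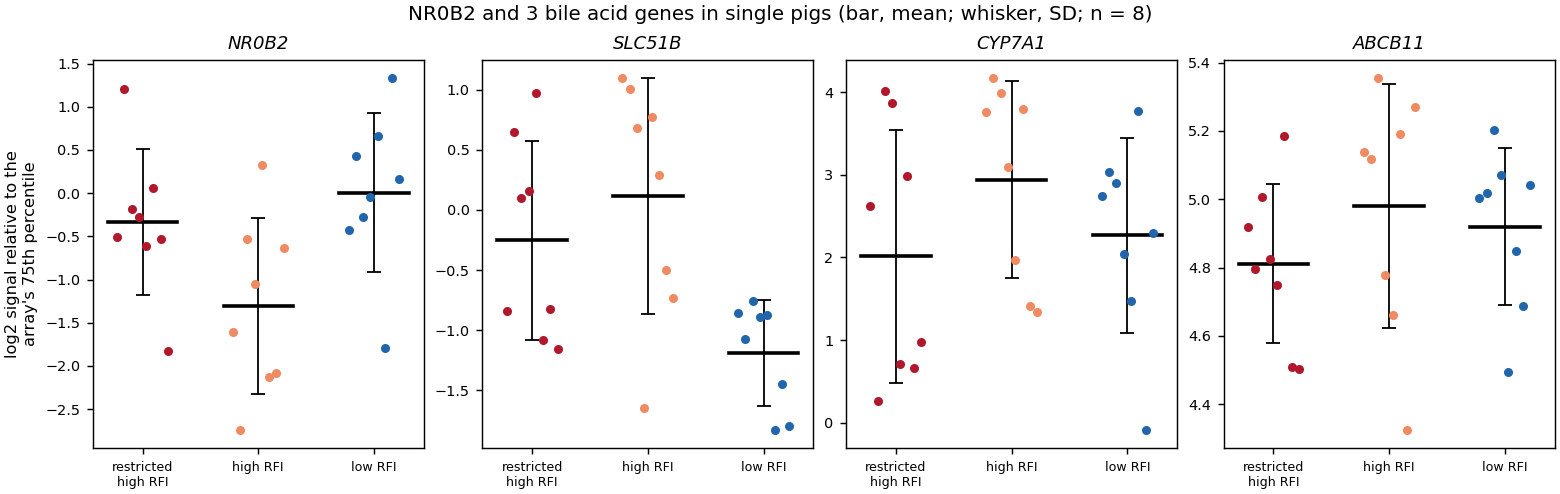
NR0B2 and the bile acid genes SLC51B, CYP7A1 and ABCB11 in every pig, in log2 signal above the array's 75th percentile; bars are group means and whiskers 1 SD (n = 8). NR0B2 averaged lowest in high RFI pigs (-1.31), where SLC51B (0.12) and CYP7A1 (2.94) averaged highest, and the groups overlap in each panel.

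NR3C1, the glucocorticoid receptor, had 3 probes, all of which averaged highest in low RFI pigs. The 2 shown here, in lower case throughout, are its dimmer ones, of which the first gave its smallest unadjusted p.
NR3C1 probe A_72_P464460: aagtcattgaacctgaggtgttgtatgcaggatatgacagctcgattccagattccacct
NR3C1 probe A_72_P444091: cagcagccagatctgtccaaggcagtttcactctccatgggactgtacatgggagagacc

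On probe A_72_P464460, NR3C1 stood at 0.49, 0.70, 0.40, 0.52, 0.59, 0.72, 0.41 and 0.15 in restricted high RFI pigs 1 to 8. In high RFI pigs 1 to 8 it stood at 0.44, 0.66, 0.12, 0.46, 0.81, 0.48, 0.69 and 0.46. In low RFI pigs 1 to 8 it stood at 0.71, 0.44, 1.05, 0.88, 0.83, 0.79, 0.70 and 0.91. Low RFI pig 2 was the one low value of its group. The other low RFI pigs stood at 0.70 or above, where 2 restricted and 1 high RFI pig also stood. Restricted high minus low RFI was -0.29 ± 0.10 (SE, unadjusted p = 0.007, adjusted p = 0.209 in limma), with 8 of 8 restricted pigs below the low RFI mean. High minus low RFI was -0.27 ± 0.10 (SE, unadjusted p = 0.012, adjusted p = 0.357 in limma), with 7 of 8 high RFI pigs below that mean. Restricted high minus high RFI was -0.02 ± 0.10 (SE, adjusted p = 0.997 in limma).

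The other NR3C1 probes gave smaller differences from low RFI pigs. The brightest, A_72_P035891, ran from 1.40 through a median of 1.71 to 2.05 in restricted high, from 1.42 through 1.62 to 1.97 in high and from 1.61 through 1.84 to 1.98 in low RFI pigs. Its differences were -0.18 ± 0.09 (adjusted p = 0.541) in high minus low, 0.06 ± 0.09 (adjusted p = 0.981) in restricted high minus high and -0.11 ± 0.09 (adjusted p = 0.639) in restricted high minus low RFI (SE, limma). Probe A_72_P444091 gave -0.11, -0.06 and -0.16 in that order. The 3 probes correlated over the 24 arrays with r between 0.42 and 0.60. On scan day 1 alone the restricted high minus low RFI difference of A_72_P464460 was -0.23 (adjusted p = 0.484), and on day 2 alone -0.35 (adjusted p = 0.515, both limma).

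Of 18 glucocorticoid receptor target genes, 11 had a probe above background and 0 were called in any comparison (unadjusted p under 0.05 in 2, 0 and 4, in the comparisons' order above). Such a p was found for 9.64%, 5.37% and 12.8% of all probes. In restricted high minus low RFI, 10 lay above 0 and 1 below, where 51.3% of all probes lay below 0. The median there was 0.27, against -0.01 over all probes. In high minus low RFI the median was 0.13 and in restricted high minus high RFI 0.12, beside 0.00 and -0.01 over all probes. TDO2, the liver enzyme that opens the tryptophan ring, averaged 7.32 ± 0.25 in restricted high and 7.06 ± 0.07 in low RFI pigs (SD, n = 8 each; difference 0.26 ± 0.10 SE, adjusted p = 0.243 in limma). CEBPD, a transcription factor of the acute phase response, differed by 0.49 ± 0.19 (SE, adjusted p = 0.269 in limma) in the same comparison. In high minus low RFI, GLUL, glutamine synthetase, differed by 0.58 ± 0.22 (SE, adjusted p = 0.375) and HSD11B1, which regenerates active glucocorticoid, by -0.22 ± 0.09 (SE, adjusted p = 0.43, both limma).

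PPARA, the fatty acid receptor that drives hepatic fatty acid oxidation, averaged lowest in restricted pigs on both of its probes. The dimmer probe is shown because the smaller unadjusted p came from it, in lower case throughout.
PPARA probe A_72_P441798: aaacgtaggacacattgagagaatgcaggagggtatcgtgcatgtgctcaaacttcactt

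On that probe PPARA ran from -1.93 through a median of -1.28 to -0.98 in restricted high RFI pigs. It ran from -1.64 through -1.09 to -0.76 in high and from -1.61 through -1.07 to -0.55 in low RFI pigs. The groups overlap over most of their range. Restricted high minus low RFI was -0.38 ± 0.16 (SE, unadjusted p = 0.024, adjusted p = 0.303 in limma), with 7 of 8 restricted pigs below the low RFI mean. The high minus low RFI difference was -0.13 ± 0.16 (SE, adjusted p = 0.833) and restricted high minus high RFI -0.25 ± 0.16 (SE, adjusted p = 0.947, both limma). By scan day, restricted high minus low RFI was -0.62 on day 1 (adjusted p = 0.289) and -0.15 on day 2 (adjusted p = 0.832, both limma).

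On the brightest PPARA probe, A_72_P775972, restricted high RFI pigs 1 to 8 stood at -0.55, -0.47, 0.09, 0.22, -0.53, 0.93, -0.27 and -1.81. High RFI pigs ran from -0.49 through a median of 0.05 to 0.71, and low RFI pigs from -0.62 through 0.10 to 1.34. Restricted pig 8 was the lowest of the 24 and restricted pig 6 was above every high RFI pig. Restricted high minus low RFI was -0.49 ± 0.29 (SE, adjusted p = 0.501), restricted high minus high RFI -0.38 ± 0.29 (SE, adjusted p = 0.959) and high minus low RFI -0.11 ± 0.29 (SE, adjusted p = 0.939, all limma). Without restricted pigs 7 and 8, the restricted high minus low RFI difference of this probe was -0.24 and the restricted high minus high RFI difference -0.13. These pigs were left out after the data were seen. Dropping pig 8, the lowest, must raise the restricted mean. The 2 probes correlated with r = 0.47 over the 24 arrays.

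Of 24 PPARA target genes, 18 had a probe above background and 0 were called in any comparison (unadjusted p under 0.05 in 1, 1 and 2, in the comparisons' order above). Restricted high minus low RFI lay above 0 for 14 of them, with a median of 0.13, and high minus low RFI likewise for 14, with a median of 0.12. Both comparisons share the low RFI arrays. In restricted high minus high RFI, 10 lay above 0 and the median was 0.01. Over all probes, 49.0%, 53.1% and 51.3% lay below 0 in high minus low, restricted high minus high and restricted high minus low RFI. The all-probe medians were 0.00, -0.01 and -0.01, and 9.64%, 5.37% and 12.8% of all probes had an unadjusted p under 0.05. ACSL1, which activates long-chain fatty acids, differed by 0.35 ± 0.13 in restricted high minus low RFI (SE, adjusted p = 0.24 in limma). PLIN2, a coat protein of lipid droplets, differed by 0.30 ± 0.12 there (SE, adjusted p = 0.281), and ACADL, a mitochondrial acyl-CoA dehydrogenase, by 0.26 ± 0.14 (SE, adjusted p = 0.443, both limma). CPT1A, the gate of fatty acid entry into mitochondria, averaged 3.24 ± 0.47 in high and 3.91 ± 0.75 in low RFI pigs (SD, n = 8 each), a difference of -0.67 ± 0.29 (SE, adjusted p = 0.458 in limma).

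PPARG, the receptor that governs fat storage in adipocytes, had 3 probes that overlap in sequence and so measure nearly the same stretch of transcript. A pair of them are shown for that overlap, with the 53 bases they share in capitals.
PPARG probe A_72_P636927: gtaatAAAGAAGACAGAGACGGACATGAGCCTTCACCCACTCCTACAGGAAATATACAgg
PPARG probe A_72_P441339: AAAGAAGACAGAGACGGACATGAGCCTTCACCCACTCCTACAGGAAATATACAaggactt

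On the brightest probe, A_72_P636927, PPARG ran from -2.78 through a median of -2.72 to -2.32 in restricted high RFI pigs. It ran from -2.69 through -2.56 to -2.44 in high and from -2.80 through -2.58 to -2.16 in low RFI pigs. The restricted group holds most of the lowest values and also a pair above -2.5. Differences were -0.04 ± 0.09 in high minus low RFI (SE, adjusted p = 0.915), -0.09 ± 0.09 in restricted high minus high RFI (SE, adjusted p = 0.967) and -0.13 ± 0.09 in restricted high minus low RFI (SE, adjusted p = 0.566, all limma). The other probes, A_72_P441339 and A_72_P146711, had all 6 differences below 0, down to -0.18. Correlations between the 3 probes were 0.76 to 0.86, over probes that share between 38 and 53 of their 60 bases.

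Of 11 genes of adipocyte-type lipid storage, 5 had a probe above background and 0 were called in any comparison (unadjusted p under 0.05 in 0, 0 and 1, in the comparisons' order above). Such a p was found for 9.64%, 5.37% and 12.8% of all probes. The medians of the 5 were -0.21, -0.09 and -0.13 in high minus low, restricted high minus high and restricted high minus low RFI, beside 0.00, -0.01 and -0.01 over all probes. CIDEA, a lipid droplet protein, differed by -0.46 ± 0.22 in restricted high minus low RFI (SE, adjusted p = 0.378) and the adipokine gene ADIPOQ by -0.35 ± 0.19 (SE, adjusted p = 0.469, both limma). ADIPOQ was very dim, averaging -4.94 in restricted high and -4.59 in low RFI pigs. FABP4, an adipocyte fatty acid carrier, differed in high minus low RFI by -0.41 ± 0.30 (SE, adjusted p = 0.714) and CD36, a fatty acid translocase, by 0.43 ± 0.36 (SE, adjusted p = 0.75, both limma). Of 6 adipocyte markers 5 stood above background, PLIN1 did not, and their summed level ran from 2.23 to 3.35 in restricted high, from 2.48 to 3.01 in high and from 2.63 to 3.14 in low RFI pigs. FABP4 averaged -1.17 in high and -0.76 in low RFI pigs, and ADIPOQ stood lower still. Most of that sum thus came from other markers of the list, and it is no measure of fat content. The part of adipocytes in the PPARG values was not tested.

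NR1H3, the oxysterol receptor LXR alpha, which drives cholesterol efflux and lipid synthesis, varied little between pigs on its brightest probe (A_72_P443928). There it ran from 5.08 through a median of 5.36 to 5.52 in restricted high RFI pigs. It ran from 5.20 through 5.40 to 5.46 in high and from 5.29 through 5.43 to 5.54 in low RFI pigs. The groups overlap over nearly all of this range, and the spread within groups, 0.11 log2 units, was at the 1.49 percentile of all probes kept. Differences were -0.06 ± 0.07 in high minus low RFI (SE, adjusted p = 0.83), -0.04 ± 0.07 in restricted high minus high RFI (SE, adjusted p = 0.983) and -0.10 ± 0.07 in restricted high minus low RFI (SE, adjusted p = 0.586, all limma). The other 3 probes, A_72_P033031, A_72_P228412 and A_72_P077786, gave 9 differences below 0, down to -0.28, and had within-group SDs of 0.23, 0.32 and 0.20, at the 38.0, 62.6 and 27.4 percentiles. These signs depend on the background correction: under normexp correction the 3 differences of the brightest probe were 0.03, 0.01 and 0.04. Correlations between the 4 probes ranged from 0.28 to 0.84.

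Of 12 genes on the LXR list, 8 had a probe above background and 0 were called in any comparison (unadjusted p under 0.05 in 2, 0 and 0, in the comparisons' order above). The list holds LXR targets and also NR1H2, the receptor LXR beta. An unadjusted p under 0.05 was found for 9.64%, 5.37% and 12.8% of all probes. Below 0 lay 7 of the 8 in restricted high minus high RFI, where 53.1% of all probes did. The median of the 8 was -0.11 there, against 0.03 in high minus low and 0.01 in restricted high minus low RFI. Over all probes these medians were -0.01, 0.00 and -0.01. FASN, fatty acid synthase, averaged 7.86 ± 0.27 in high and 7.24 ± 0.58 in low RFI pigs (SD, n = 8 each; difference 0.62 ± 0.21 SE, adjusted p = 0.302 in limma). SCD, the stearoyl-CoA desaturase, differed by 0.84 ± 0.34 in that comparison (SE, adjusted p = 0.413 in limma). MYLIP, which degrades the LDL receptor, differed there by -0.19 ± 0.14 (SE, adjusted p = 0.711 in limma). MLXIPL, the carbohydrate-sensing factor ChREBP, differed by -0.24 ± 0.14 in restricted high minus low RFI (SE, adjusted p = 0.508 in limma).

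NR1I2 (the pregnane X receptor PXR) and NR1I3 (the constitutive androstane receptor CAR) sense drugs and other foreign compounds and induce cytochrome P450 enzymes. NR1I2 on its brightest probe (A_72_P177521) ran from 3.22 through a median of 3.73 to 3.96 in 7 restricted high RFI pigs, the spot of an eighth being an outlier. It ran from 3.42 through 3.59 to 3.81 in high and from 3.40 through 3.64 to 3.93 in low RFI pigs. The 3 medians lay within the range of every group. Differences were -0.05 ± 0.09 in high minus low RFI (SE, adjusted p = 0.904), 0.06 ± 0.09 in restricted high minus high RFI (SE, adjusted p = 0.983) and 0.01 ± 0.09 in restricted high minus low RFI (SE, adjusted p = 0.978, all limma). The other probes, A_72_P444221 and A_72_P486870, gave differences between -0.09 and 0.05, and correlations between the 3 probes were 0.70 to 0.83.

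NR1I3 on its brightest probe (A_72_P177911) stood at 5.58, 5.51, 5.70, 5.53, 5.58, 5.89, 4.97 and 4.73 in restricted high RFI pigs 1 to 8. High RFI pigs ran from 5.51 through a median of 5.66 to 5.73, and low RFI pigs from 5.17 through 5.60 to 5.96. Restricted pigs 7 and 8 lay below all 22 others. Restricted high minus high RFI was -0.19 ± 0.13 (SE, adjusted p = 0.951), and restricted high minus low RFI was -0.17 ± 0.13 (SE, adjusted p = 0.64, both limma). Without those 2 pigs the differences were 0.00 and 0.03. They were left out after the data were seen, and dropping the lowest pigs of a group must raise its mean, so this tests nothing. The high minus low RFI difference was 0.02 ± 0.13 (SE, adjusted p = 0.976 in limma).

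The second NR1I3 probe, A_72_P160941, ran against the first over the 24 arrays, with a correlation of -0.46. Its restricted high minus low RFI difference was 0.17 ± 0.15 (SE, adjusted p = 0.68 in limma), where the first probe gave -0.17. Which of the 2 follows the NR1I3 transcript was not tested. A further probe whose array name is CAR was left out, since its description there names the coxsackie virus and adenovirus receptor.

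Of 20 PXR and CAR target genes, 12 had a probe above background and 0 were called in any comparison (unadjusted p under 0.05 in 3, 4 and 4, in the comparisons' order above). Such a p was found for 9.64%, 5.37% and 12.8% of all probes. Restricted high minus low RFI had 8 above 0 and 4 below, with a median of 0.22, where 51.3% of all probes lay below 0. The median was -0.02 in high minus low and 0.15 in restricted high minus high RFI. Over all probes the median was -0.01, 0.00 and -0.01 in these 3 comparisons. The pig P450 genes belong to families of near-identical members that a probe may not tell apart. CYP2C33 averaged 7.85 ± 0.26 in restricted high and 7.48 ± 0.19 in high RFI pigs (SD, n = 8 each; difference 0.37 ± 0.11 SE, adjusted p = 0.729 in limma). CYP2C42 differed by -0.64 ± 0.24 in that comparison (SE, adjusted p = 0.858 in limma). CYP3A29 differed by 0.54 ± 0.18 in restricted high minus low RFI (SE, adjusted p = 0.216 in limma). ABCC2, the canalicular exporter of conjugated compounds, averaged 3.93 ± 0.30 in high and 4.49 ± 0.26 in low RFI pigs (SD, n = 8 each; difference -0.56 ± 0.17 SE, adjusted p = 0.233 in limma).

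**Figure D3:**
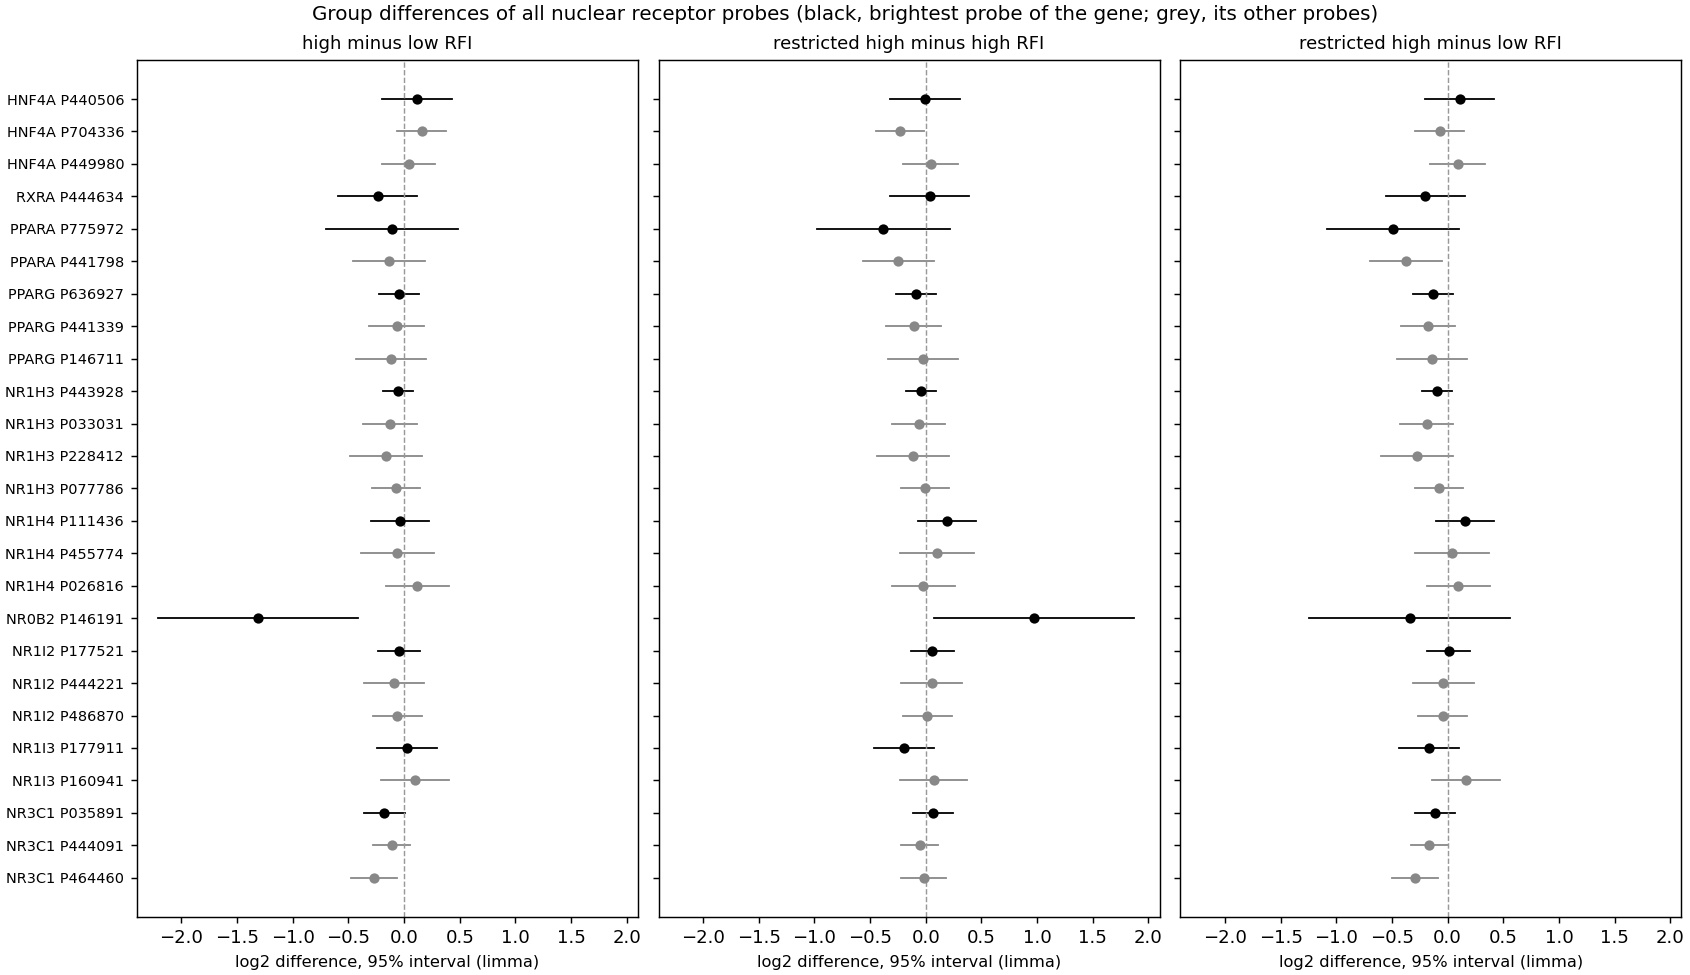
Difference of all 25 receptor probes in the 3 comparisons, in log2 units, with the 95% interval from limma; black marks the brightest probe of a gene and grey its other probes. Intervals of NR0B2 are the widest, at -2.21 to -0.41 in high minus low RFI, and 22, 22 and 20 of the 25 intervals lie within 0.5 of 0.

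HNF4A, the receptor that maintains the hepatocyte programme, averaged nearly the same in all groups. The probe shown first gave its only unadjusted p under 0.05. In the second, capitals mark 34 bases whose reverse complement (capitals in the third) lies in a probe described on the array as the related gene HNF4 gamma.
HNF4A probe A_72_P704336: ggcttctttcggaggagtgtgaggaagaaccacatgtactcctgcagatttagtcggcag
HNF4A probe A_72_P449980: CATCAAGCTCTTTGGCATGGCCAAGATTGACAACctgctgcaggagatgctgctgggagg
Probe A_72_P041211: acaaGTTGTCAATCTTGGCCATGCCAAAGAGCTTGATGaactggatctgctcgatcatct

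On its brightest probe (A_72_P440506) HNF4A ran from 0.23 through a median of 0.75 to 1.08 in restricted high RFI pigs. It ran from 0.34 through 0.60 to 1.32 in high and from 0.18 through 0.69 to 0.86 in low RFI pigs. High minus low RFI was 0.11 ± 0.15 (SE, adjusted p = 0.854), restricted high minus high RFI -0.01 ± 0.15 (SE, adjusted p = 0.998) and restricted high minus low RFI 0.11 ± 0.15 (SE, adjusted p = 0.814, all limma). Probe A_72_P704336 averaged -0.25 ± 0.18 in restricted high, -0.03 ± 0.27 in high and -0.18 ± 0.15 in low RFI pigs (SD, n = 8 each). Its restricted high minus high RFI difference was -0.23 ± 0.11 (SE, unadjusted p = 0.040, adjusted p = 0.922 in limma), and 7 of 8 restricted pigs lay below the high RFI mean. The brightest probe had -0.01 in that comparison, and A_72_P449980 had 0.05. A_72_P449980 correlated with the brightest probe with r = 0.80 and with its opposite-strand counterpart A_72_P041211 with r = 0.27 (23 arrays each). A_72_P041211 was very dim, at -4.00 ± 0.48 in restricted high, -4.09 ± 0.31 in high and -4.34 ± 0.31 in low RFI pigs (SD). The low r therefore does not tell what that probe measures.

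Of 20 HNF4A target genes, 17 had a probe above background and 0 were called in any comparison (unadjusted p under 0.05 in 0, 0 and 0, in the comparisons' order above). Such a p was found for 9.64%, 5.37% and 12.8% of all probes. The medians of the 17 were -0.03, -0.02 and -0.06 in high minus low, restricted high minus high and restricted high minus low RFI, beside 0.00, -0.01 and -0.01 over all probes. TF, transferrin, differed by 0.14 ± 0.08 in high minus low RFI (SE, adjusted p = 0.615), and AGT, angiotensinogen, by -0.20 ± 0.14 there (SE, adjusted p = 0.703, both limma). The apolipoprotein genes APOB and APOA1 differed in restricted high minus low RFI by 0.17 ± 0.11 (SE, adjusted p = 0.558) and -0.13 ± 0.09 (SE, adjusted p = 0.593, both limma).

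RXRA, the shared partner of most receptors described above, stood apart by slide. It ran from -1.17 through a median of -0.85 to -0.37 in restricted high, from -1.14 through -0.92 to -0.08 in high and from -1.09 through -0.75 to 0.12 in low RFI pigs. Its high minus low RFI difference was -0.24 ± 0.17 (SE, adjusted p = 0.709), restricted high minus high RFI 0.03 ± 0.17 (SE, adjusted p = 0.997) and restricted high minus low RFI -0.20 ± 0.17 (SE, adjusted p = 0.673, all limma). On the 4 arrays of slide 6, its single probe (A_72_P444634) ran from -0.37 to 0.12 with a mean of -0.08 ± 0.21. On the 20 other arrays RXRA ran from -1.17 to -0.48 with a mean of -0.89 ± 0.18 (SD). Slide 6 held 1 restricted high, 1 high and 2 low RFI pigs. Without it, the 3 RXRA differences were -0.12, 0.08 and -0.04.

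**Figure D4:**
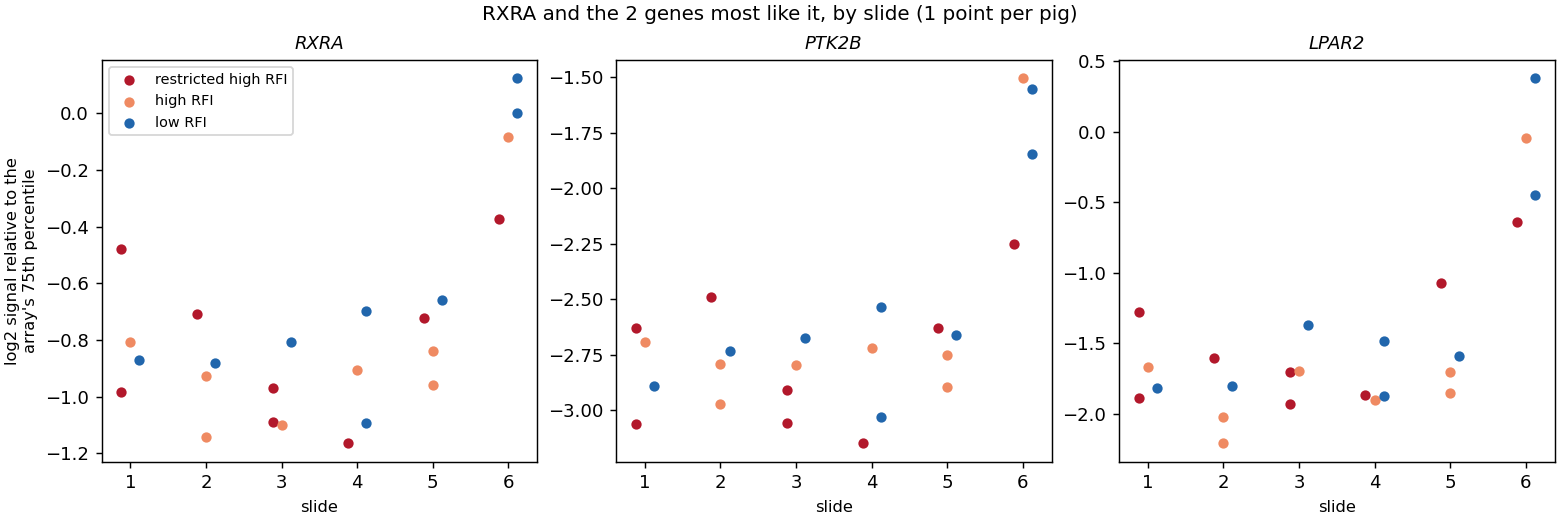
RXRA and the pair of genes whose levels were most like it, PTK2B and LPAR2, in every pig by slide, in log2 signal above the array's 75th percentile; colours mark the groups. The 4 arrays of slide 6 lie highest in all 3 panels, for RXRA between -0.37 and 0.12.

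The genes most like RXRA shared the step on slide 6. PTK2B, a tyrosine kinase, averaged -1.79 on slide 6 and -2.80 on the 20 other arrays. LPAR2, a lysophosphatidic acid receptor, averaged -0.19 on slide 6 and -1.72 on the others. Since the arrays fall into these 2 clusters, the likeness is given over the 20 other arrays, where r with RXRA was 0.84 for PTK2B and 0.75 for LPAR2.

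For the other receptors, the pair of genes with the highest correlation over the 24 arrays (23 for NR1I2) are named as a description. These arrays share slides and scaling. NR1H3 was most like TBX3, a T-box transcription factor (r = 0.89), and the sorting nexin SNX11 (r = 0.80). NR0B2 was most like RNF8, a ubiquitin ligase (r = 0.77), and another probe of TBX3, A_72_P488239 (r = 0.63). NR3C1 was most like LEAP2, a liver-expressed antimicrobial peptide (r = 0.88), and the kinase STK16 (r = 0.85).

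PPARA was most like ZNF318 (r = 0.85) and XKR8 (r = 0.75), and NR1I3 most like LYSMD4 (r = 0.84) and the aminopeptidase NPEPPS (r = 0.80). HNF4A was most like RARA, a retinoic acid receptor (r = 0.80), and PRMT5, an arginine methyltransferase (r = 0.75). NR1H4 was most like ICE2 (r = 0.75) and LOC641352 (r = 0.74), and NR1I2 most like the amino acid transporter SLC7A7 (r = 0.73) and the scaffold PDZK1 (r = 0.72). PPARG was most like SNX14 (r = 0.73) and MBP, myelin basic protein (r = 0.70).

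Among the receptors themselves, the highest correlations between brightest probes were those of PPARA with NR1I3 (r = 0.63, 24 arrays), NR1I2 with NR1I3 (r = 0.61, 23 arrays) and NR1H3 with NR1I3 (r = 0.57, 24 arrays). NR1H4 had the lowest, at -0.47 with NR1H3. With slide means removed these were 0.66, 0.63, 0.64 and -0.56. On these probes restricted pig 8 was the lowest pig measured for PPARA (-1.81), NR1I3 (4.73), NR1H3 (5.08) and NR1I2 (3.22). That pig was also the highest for NR1H4 (3.08). How far these correlations rest on that pig was not tested.

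Other nuclear receptors of the pig liver were likewise uncalled. Of 38 listed, 24 had a probe, 17 stood above background and 0 were called in any comparison (unadjusted p under 0.05 in 1, 1 and 1), with medians of -0.03, -0.01 and -0.04 in high minus low, restricted high minus high and restricted high minus low RFI. Over all probes, 9.64%, 5.37% and 12.8% had such a p, and the medians were 0.00, -0.01 and -0.01. THRA, a thyroid hormone receptor, differed by -0.17 ± 0.07 in high minus low RFI (SE, adjusted p = 0.402), and the retinoic acid receptor RARB by 0.30 ± 0.15 (SE, adjusted p = 0.547, both limma). ESR1, the oestrogen receptor alpha, differed by -0.22 ± 0.10 in restricted high minus high RFI (SE, adjusted p = 0.917 in limma). NR2F2, an orphan receptor of the COUP family, differed by -0.26 ± 0.13 in restricted high minus low RFI (SE, adjusted p = 0.419 in limma).

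Nuclear receptors recruit coregulators that open or close chromatin. Of 20 coregulators and chaperones, 12 had a named probe and all 12 stood above background. In limma 0 were called in any comparison (unadjusted p under 0.05 in 3, 0 and 2, in the comparisons' order above, against 9.64%, 5.37% and 12.8% of all probes). HSP90AA1, the chaperone that holds the unliganded glucocorticoid receptor, differed by 0.34 ± 0.16 in restricted high minus low RFI (SE, adjusted p = 0.362 in limma). The coactivators NCOA6 and NCOA4 differed by -0.14 ± 0.06 (SE, adjusted p = 0.462) and 0.13 ± 0.09 (SE, adjusted p = 0.698) in high minus low RFI (both limma).

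Of 11 other liver transcription factors, 8 had a named probe and all 8 stood above background. In limma 0 were called in any comparison (unadjusted p under 0.05 in 0, 1 and 2, in the comparisons' order above, against 9.64%, 5.37% and 12.8% of all probes). CEBPA, a factor of hepatocyte metabolism, averaged 5.46 ± 1.16 in restricted high and 6.39 ± 0.44 in low RFI pigs (SD, n = 8 each; difference -0.93 ± 0.38 SE, adjusted p = 0.299 in limma). TBX3 (probe A_72_P041196) differed by -0.65 ± 0.30 in that comparison (SE, adjusted p = 0.359 in limma). The pioneer factor FOXA1 differed by 0.25 ± 0.12 in restricted high minus high RFI (SE, adjusted p = 0.925 in limma).

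Markers of cell types other than hepatocytes were also uncalled in every comparison. Of the stellate cell and fibroblast list, 7 of 9 genes had a named probe, and all 7 stood above background. In each comparison 6 of the 7 lay below 0, where 49.0%, 53.1% and 51.3% of all probes did. The medians of the 7 were -0.31, -0.19 and -0.56 in high minus low, restricted high minus high and restricted high minus low RFI, beside 0.00, -0.01 and -0.01 over all probes. In limma 2, 0 and 4 of the 7 had an unadjusted p under 0.05, against 9.64%, 5.37% and 12.8% of all probes, as did 0, 0 and 1 of 3 Kupffer cell and macrophage genes and 0 genes of the other marker lists. The lowest adjusted p of the stellate cell and fibroblast list was 0.0633, for RGS5 in restricted high minus low RFI. The summed level of that list ran from 4.65 to 5.83 in restricted high, from 4.70 to 6.07 in high and from 5.12 to 6.23 in low RFI pigs. On their brightest probes NR3C1, PPARG, PPARA, NR1H3, RXRA and NR0B2 also averaged highest in low RFI pigs. The part of such cells in those values was not tested.

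Among the remaining lists, markers above background numbered 3 of 5 for cholangiocytes, 6 of 7 for endothelial cells, 3 of 8 for Kupffer cells and macrophages and 6 of 8 for lymphocytes. The other markers of these lists had no named probe. No named probe covered the 4 erythroid markers. The summed endothelial level ran from 3.51 to 4.31 in restricted high, from 3.32 to 4.33 in high and from 3.41 to 4.32 in low RFI pigs. The Kupffer cell and macrophage sum ran from 5.90 to 6.41, from 5.93 to 6.24 and from 5.79 to 6.21 in the same order of groups. The cholangiocyte sum ran from -0.43 to 0.81, from -0.77 to 0.39 and from -0.75 to 0.34 in that order, and the lymphocyte sum from 0.81 to 1.96, from 1.13 to 1.81 and from 1.28 to 1.93.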

How the data were processed

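Liver RNA of each pig (150 ng, labelled with Cy3, per the labels' protocols) was hybridised to a 1-colour Agilent array of 45220 features, read by Feature Extraction 10.7.3.1 per the file headers. The deposited intensity is the scanner software's processed signal, background-subtracted and detrended per the file headers. The authors also deposited a log2 table of 27564 features, which equals log2 of that signal minus a constant per array (correlation 1). The submitters' processing notes name R 2.10.0.

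Here control and outlier spots were left out, log2 processed signal minus the array's 75th percentile was averaged per probe, and probes well above background on at least 6 of 8 arrays of a group were kept (29665 of 43603). Probes were named through accession, gene ID or symbol (12220 probes, 5475 symbols). The 24 arrays were fitted together by limma 3.58.1 (R 4.3.3) with a group term alone. P-values measure the spread between these pigs, and the number of arrays limits precision. A receptor's brightest probe is the one with the highest mean signal. In simulated high minus low RFI data of 29665 probes, 200 probes drawn at random were changed. Noise was normal and independent between probes and arrays, with each probe's own within-group SD. The test recovered 90% of changes of 1 log2 unit and 99% of changes of 2, and also called 15 unchanged probes. These rates are over probes of all spreads and do not hold for a probe as variable as that of NR0B2 (98.1 percentile).

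All probes of the receptors are named, along with up to 4 genes per list with the smallest unadjusted p in any comparison and the 2 genes most correlated with each brightest probe. A few genes that this rule names are not reported here. Further genes, such as those shown for markers, were named after their values were seen. The receptors and the gene lists were chosen with earlier results of these data known. Figures were drawn with matplotlib 3.10.9.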

Additional observations from a re-analysis of the deposited data

Results flagged for a closer look

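In 75 groups of receptor values, 6 held a pig whose gap to the nearest other was wide for its group by Dixon's criterion at 95%, and chance alone gives about 1 in 20 groups. RXRA (A_72_P444634) had its highest high RFI value, -0.085, in pig 7, the one high RFI pig on slide 6. NR1I3 (A_72_P160941) was highest in the same pig, at -0.84. HNF4A stood high at 0.15 in low RFI pig 5 (A_72_P704336) and at 1.03 in restricted high RFI pig 2 (A_72_P449980). NR1H4 (A_72_P026816) stood high at 1.47 in low RFI pig 5. PPARG (A_72_P146711) stood low at -3.92 in restricted high RFI pig 8.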

How the results depend on the processing

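Across 12 alternatives, 2 of them (slide 6 left out, and restricted pigs 7 and 8 left out) chosen after seeing the data, 0 receptor differences were called. The smallest adjusted p in limma was 0.0979, for NR3C1 (A_72_P464460) in restricted high minus low RFI with slide as a block. The 39 differences tracked are those of the brightest probes and of probes with an unadjusted p under 0.05 in limma in any comparison. Of their 468 alternative values, 438 kept their sign and 30 changed it, from main values of at most 0.20. Over all 75 receptor differences, 76 of 900 alternative values changed sign, from main values of at most 0.28. The cause was not tested. The changes among the tracked differences follow. Normexp background correction lowered the median of all probes to -0.11 in restricted high minus low RFI and gave NR1H3 differences of 0.027 (high minus low), 0.015 (restricted high minus high) and 0.042 (restricted high minus low), NR1I2 0.064 in high minus low, and HNF4A 0.035 and NR3C1 (A_72_P464460) 0.016 in restricted high minus high RFI. Quantile normalization gave NR1I2 -0.033 in restricted high minus low RFI, and slide as a block gave it -0.0032. The authors' deposited table gave HNF4A 0.0062 and NR1I2 -0.026 in restricted high minus high and NR1I2 -0.077 in restricted high minus low RFI. Scan day 1 alone gave PPARG 0.070 and NR1I2 0.091 in high minus low, HNF4A 0.097 in restricted high minus high, and RXRA 0.0068 and NR3C1 (A_72_P035891) 0.018 in restricted high minus low RFI. Scan day 2 alone gave NR1H4 0.023 in high minus low, RXRA -0.057 and NR3C1 (A_72_P464460) 0.034 in restricted high minus high, and HNF4A -0.10 and NR1I2 -0.054 in restricted high minus low RFI. Without slide 3, NR1I3 was -0.040 in high minus low, NR3C1 (A_72_P035891) -0.018 in restricted high minus high, and HNF4A -0.046 and NR1I2 -0.10 in restricted high minus low RFI. Without slide 6, HNF4A was 0.044 in restricted high minus high RFI. Without restricted pigs 7 and 8, restricted high minus high RFI was 0.024 for NR1H3, 0.0036 for NR1I3 and 0.053 for NR3C1 (A_72_P464460), and restricted high minus low RFI 0.028 for NR1I3.

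Over all probes, the 48 calls in high minus low RFI (24 higher, 24 lower) became 5 under normexp (4 higher, 1 lower), 28 with no filter on dim probes, 5 and 10 on scan days 1 and 2 alone, 28 without slide 3 and 23 without slide 6. The 68 in restricted high minus low RFI (37 higher, 31 lower) became 13 under normexp (10 higher, 3 lower), 36 and 10 on scan days 1 and 2 alone, 24 without slide 3, 40 without slide 6 and 25 without restricted pigs 7 and 8. In restricted high minus high RFI 0 were called, with 1594 at an unadjusted p under 0.05, and 1 on scan day 2 alone. The same pig numbers recur in each group. Deviations of same-numbered pigs correlated above 0.1 in 5 of 8 pairs of restricted high and high RFI pigs (mean 0.145, against -0.020 for other numbers; own number best in 4), in 2 of 8 of restricted high and low (mean 0.015, own number best in 0) and in 1 of 8 of high and low RFI pigs (mean 0.0032, own number best in 1). Restricted high and high RFI pigs thus leaned toward pairing, though not every pair passed 0.1. The main fit did not use the numbers as pairs, so it may ignore a pairing in that comparison. With pig number as a replicate block, restricted high minus high RFI had 0 calls and 1813 probes at an unadjusted p under 0.05 in limma, in place of 1594. The 68 calls in restricted high minus low RFI became 103, and 0 receptors were called in any comparison.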
